A study of Mus with 12 samples.

Results

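The 9 adrenergic and muscarinic receptor genes described here were Adra1a, Adra1b, Adra1d, Adra2a, Adra2b, Adra2c, Adrb1, Chrm2 and Chrm3. Each was taken as the row that carries its name and at least 1 Ensembl transcript in each of the 2 deposited gene tables, which hold 87235 rows for the implantation stage and 40787 rows for the labor stage. All 9 genes had 1 such row in each table. RNA had been sequenced from the whole uterus of 12 pregnant ICR mice (an outbred strain), 1 mouse per library, in 4 groups of 3. The labels give an age of 8 weeks for all 12. The study's methods give the same age at mating for all mice, so those of later days were older when collected. The implantation stage compared E0.5, the start of pregnancy, with E4.5, and the labor stage compared E15.5 with E18.5, close to birth. The labels name no engineered allele and no treatment. The study chose these stages as times at which progesterone levels change, and a positive log2 fold change below means higher at E0.5 or at E18.5.

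Adrenergic receptors bind noradrenaline and adrenaline, the transmitter and hormone of the sympathetic system, and muscarinic receptors bind acetylcholine, the transmitter of parasympathetic nerves. Alpha1 receptors (Adra1a, Adra1b, Adra1d) and the M3 receptor (Chrm3) couple to Gq proteins, which raise intracellular calcium and contract smooth muscle. Alpha2 receptors (Adra2a, Adra2b, Adra2c) and the M2 receptor (Chrm2) couple to Gi proteins, which lower cAMP, whereas the beta1 receptor (Adrb1) couples to Gs, which raises it. In the uterus cAMP is known to relax the myometrium, the muscle layer.

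The 6 implantation libraries held 58020989 to 70906881 counts, and the depth of the labor libraries is unknown because their table gives FPKM only (fragments counted relative to transcript length and library size). E4.5 replicate 3 stood apart. Its 8 ovary markers summed to 836 FPKM, against 4.26 to 6.39 FPKM in the other 5 implantation libraries, with Cyp11a1 at 378 FPKM against 0.0513 to 0.951 FPKM and Fshr at 3.63 FPKM where the others were at 0. Its 10 smooth muscle markers summed to 216 FPKM, against 833 to 1264 FPKM in the others. Smooth muscle markers were present in every library and summed to 2960 to 4522 FPKM at the labor stage. In the labor table E15.5 replicate 1 lay apart from the other 2 libraries of its day, with Spearman correlations of 0.902 and 0.872 across the 14254 annotated rows with at least 1 FPKM, where those 2 had 0.954 with each other and 0.903 to 0.944 with the E18.5 libraries. In whole uterus, fewer cells of a type and less RNA per cell cannot be told apart.

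The receptors were expressed at low levels. Summed over the 9 genes, expression was 4.24 to 5.84 FPKM at E0.5, 4.22 to 5.91 FPKM at E4.5, 1.80 to 2.11 FPKM at E15.5 and 1.96 to 2.86 FPKM at E18.5. Each table has its own assembly and normalization, so levels were not tested between stages. At E0.5 Adra2a was highest and its lowest library lay above the highest library of every other receptor. At E4.5 Adra2a, Adra1d and Chrm3 led and overlapped each other. Adra2a, Chrm3 and Chrm2 led and overlapped at E15.5. At E18.5 Adra2b was highest, above Adra2a in every library, and Adra2a was above Chrm3 and Chrm2, which overlapped.

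**Figure D1:**
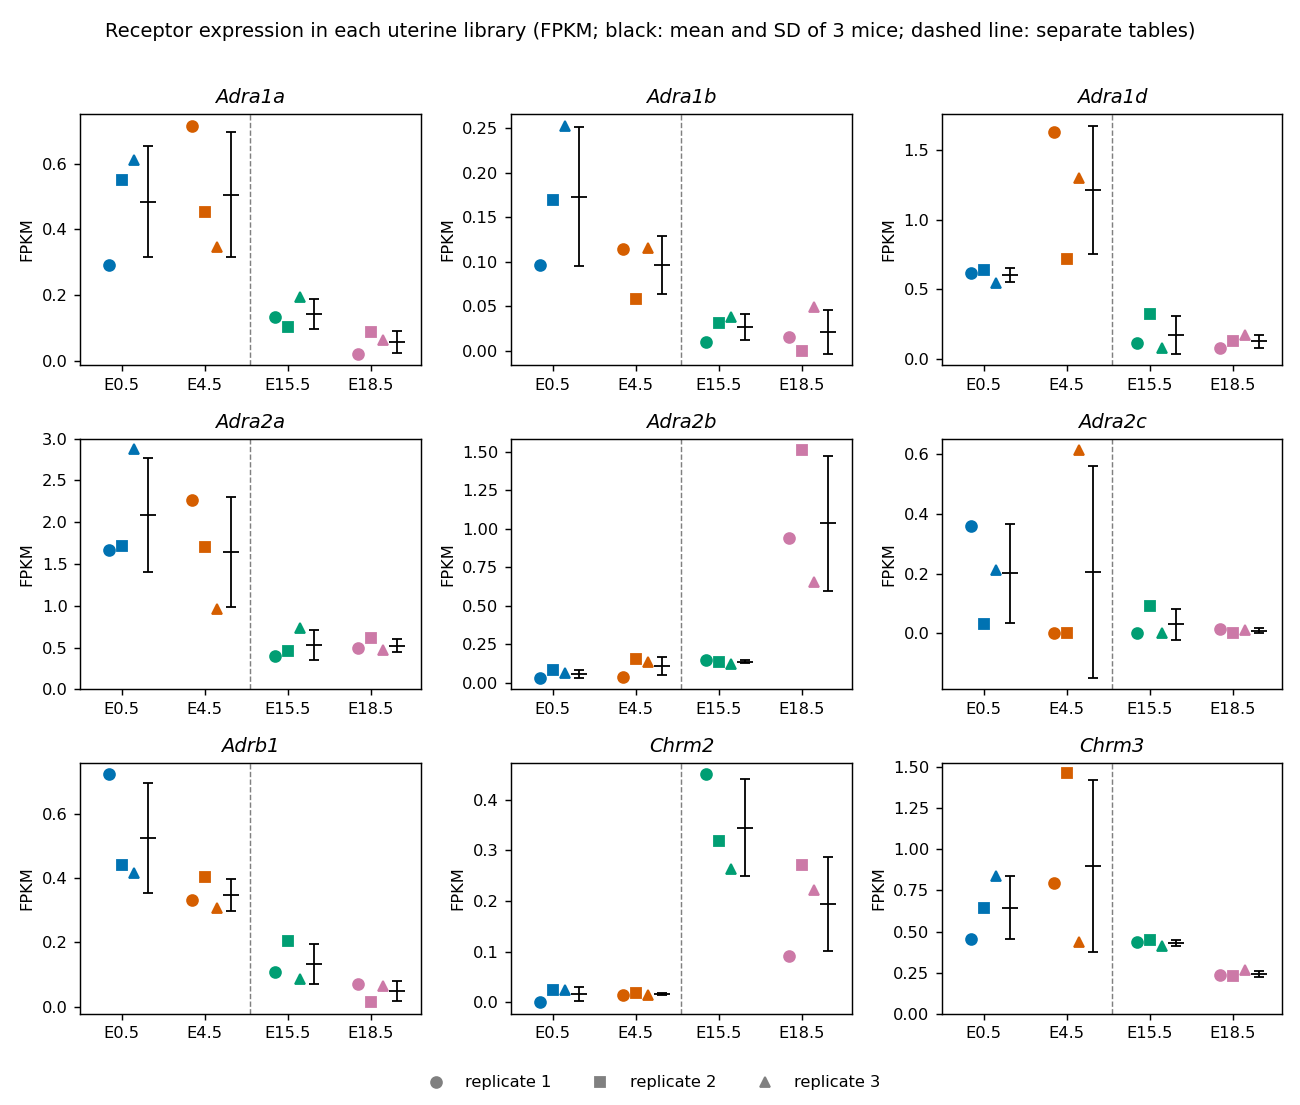
FPKM (linear axes, 1 panel per receptor) of each library by day of pregnancy, with symbols for the replicate numbers and black bars for the mean and SD of 3 mice; the dashed line separates the tables. Adra2b at E18.5 lies at 0.656 to 1.51 FPKM, above all E15.5 libraries, and Chrm2 is at most 0.0248 FPKM in all 6 implantation libraries.

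A row was called by the study's criterion when its log2 fold change was 1 or more in either direction and its unadjusted p was under 0.05, and separately by an adjusted p under 0.05 over all tested rows. A row was tested if its mean over the 6 libraries of a stage reached 0.1 FPKM. At the implantation stage 7 of the 9 receptors were tested, and 1, Adra1d, was called, lower at E0.5, where 12.2% of all tested rows were called (6.37% higher and 5.82% lower). No receptor passed the adjusted p in edgeR, where 1.22% of all rows passed, or in DESeq2, where 9.74% passed. In edgeR 1 receptor had an unadjusted p under 0.05, as did 17% of all rows. At the labor stage 5 were tested and 1, Adra2b, was called, higher at E18.5, where 6.05% of all tested rows were called (3.11% higher and 2.93% lower). There 0 passed the adjusted p in limma, against 0.0259% of all rows, and 2, Adra2b and Chrm3, had an unadjusted p under 0.05, as did 12.2% of all rows. The median log2 fold change of the tested receptors was 0.04 at the implantation stage, beside -0.01 over all tested rows, and -0.17 at the labor stage, beside 0.02.

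**Figure D2:**
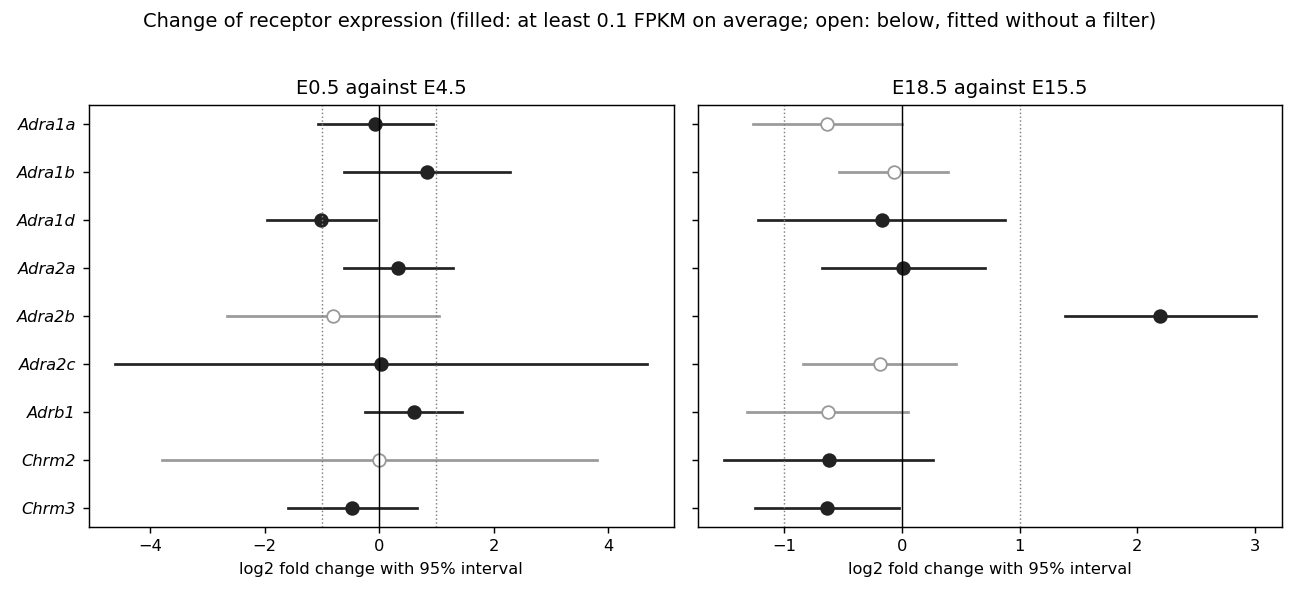
Log2 fold change (x axis, points) with its 95% interval (bars) for each receptor, E0.5 against E4.5 on the left and E18.5 against E15.5 on the right; open points are receptors below 0.1 FPKM on average, fitted without a filter, and dotted lines mark -1 and 1. The interval of Adra2b at the labor stage runs from 1.39 to 3.01 and that of Adra1d at the implantation stage from -1.96 to -0.06.

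Among the alpha1 receptors, Adra1d was the one that differed by the study's criterion before implantation. Adra1d, on the minus strand of chr2:131545850-131562283 (coordinates as in the table, which match GRCm38/mm10), had 0.617, 0.642 and 0.544 FPKM at E0.5 against 1.63, 0.716 and 1.3005 FPKM at E4.5. All 3 libraries of E0.5 were below all 3 of E4.5, and E4.5 replicate 2 lay nearest to them. The means were 0.601 ± 0.0509 FPKM and 1.21 ± 0.462 FPKM (SD, n = 3 each), and edgeR gave a log2 fold change of -1.01 with a standard error of 0.40 (Benjamini-Hochberg adjusted p = 0.269). Over the 6 fits that left out 1 library the log2 fold change stayed negative, from -1.29 to -0.70, and the call was lost in 5 of them, all but the one without E4.5 replicate 2. Without E4.5 replicate 3 it was -0.99 (edgeR adjusted p = 0.264). It was -0.84 and not called with limma on log2(FPKM + 0.1). Endothelial markers were also lower at E0.5, with a sum of 18.8 to 21.5 FPKM against 29.2 to 53.7 FPKM and 3 of 5 genes called lower. The sum of the nerve markers was lower too (0.740 to 1.26 FPKM against 1.79 to 15.4 FPKM, 2 of 5 tested genes called lower), and that of the epithelial markers was higher at E0.5 (237 to 285 FPKM against 76.0 to 165 FPKM, 4 of 8 called higher). Of 6 adrenal markers, 1 was tested, Cyp21a1, which was called higher at E0.5 (5.002 to 20.1 FPKM against 0.0802 to 0.322 FPKM). The part of these tissues in the result was not tested.

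In late pregnancy Adra1d had 0.114, 0.326 and 0.0784 FPKM at E15.5 against 0.0805, 0.131 and 0.172 FPKM at E18.5. The groups overlapped, and the log2 fold change was -0.17 (95% interval -1.22 to 0.88), and -0.29 without E15.5 replicate 1. Adra1a (chr14:66635251-66771168, plus strand), the alpha1 subtype best known for contraction of smooth muscle, had 0.293, 0.551 and 0.611 FPKM at E0.5 against 0.717, 0.454 and 0.348 FPKM at E4.5. These groups overlapped as well, with a log2 fold change (edgeR) of -0.07 with a standard error of 0.42 (adjusted p = 0.953). In late pregnancy Adra1a had 0.132, 0.102 and 0.194 FPKM at E15.5 against 0.0215, 0.0859 and 0.0625 FPKM at E18.5. All E18.5 libraries were below all E15.5 libraries, but the mean was just under the filter, and without a filter the log2 fold change (limma) was -0.64 with a standard error of 0.26 (adjusted p = 0.478).

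Adra1b (chr11:43774606-43901210, minus strand), the remaining alpha1 subtype, had 0.0965, 0.170 and 0.253 FPKM at E0.5 against 0.114, 0.0583 and 0.115 FPKM at E4.5. The groups overlapped, with a log2 fold change (edgeR) of 0.84 with a standard error of 0.61 (adjusted p = 0.517) from 17 to 75 counts per library. In late pregnancy it did not exceed 0.0485 FPKM in any library and was not tested.

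Among the alpha2 receptors, Adra2b rose by the study's criterion between E15.5 and E18.5 and Adra2a was not called. Adra2b (chr2:127363208-127367221, plus strand), an alpha2 subtype known from vascular smooth muscle, had 0.146, 0.136 and 0.126 FPKM at E15.5 against 0.939, 1.51 and 0.656 FPKM at E18.5. The lowest E18.5 library was above the highest E15.5 library, and the E15.5 libraries lay close together. The means were 0.136 ± 0.0101 FPKM and 1.04 ± 0.437 FPKM (SD, n = 3 each), a ratio of 7.62. The log2 fold change on the log2(FPKM + 0.1) scale was 2.20 with a standard error of 0.34 (limma, Benjamini-Hochberg adjusted p = 0.103). Adra2b was called in 6 of 6 fits that left out 1 library, with log2 fold changes of 1.91 to 2.46 and adjusted p between 0.103 and 0.334. Without E15.5 replicate 1 it was 2.23 (limma adjusted p = 0.203). With a pseudocount of 1 FPKM, close to its level at E18.5, the log2 fold change was 0.82 and Adra2b was not called.

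Markers of other tissues moved in the same libraries as Adra2b. The 8 epithelial markers summed to 202 to 449 FPKM at E15.5 against 663 to 923 FPKM at E18.5, with 5 of 8 called higher and none at 0. The trophoblast and placenta markers summed to 4.79 to 35.3 FPKM at E15.5 against 61.3 to 103 FPKM at E18.5, with 4 of 7 tested genes called higher. Among them Tpbpa, a marker of spongiotrophoblast, had 1.41 to 6.20 FPKM at E15.5 against 31.9 to 52.7 FPKM at E18.5. Of the tested genes, Prl3b1 (mean 2.62 against 1.88 FPKM) and Prl3d1 (mean 0.318 against 0 FPKM) went the other way, neither of them called. Yolk sac markers overlapped between the days (10.3 to 1074 FPKM and 220 to 814 FPKM), and the sum of the endothelial markers was lower at E18.5 (69.6 to 98.1 FPKM against 141 to 171 FPKM, 1 of 5 called lower). In 3 further lists the sums did not overlap, but they overlapped once 1 gene was left out (Uchl1, Ndufa4l2 and Cyp11a1). The nerve sum was 4.83 to 6.47 FPKM at E15.5 against 8.19 to 10.9 FPKM at E18.5, with 1 of 5 tested genes called higher, Uchl1, a neuronal ubiquitin hydrolase (mean 2.84 against 7.17 FPKM) and, of the others, higher means at E18.5 for Prph and Stmn2 and lower means for Gap43 and Tubb3, none of them called. The pericyte sum was 82.7 to 85.7 FPKM against 65.1 to 73.3 FPKM, with 1 of 5 genes called lower, Ndufa4l2 (mean 21.8 against 7.84 FPKM). The ovary sum was 23.2 to 27.8 FPKM against 16.1 to 22.8 FPKM, with 0 of 3 tested genes called, a lower mean for Cyp11a1 (20.3 against 13.6 FPKM) and higher means for Star and Inha. Of the adrenal markers, whose sums overlapped, 1 of 2 tested genes was called lower at E18.5, Cyp11b1 (4.74 to 7.29 FPKM against 0.829 to 3.0 FPKM). The part of these tissues in the rise of Adra2b was not tested. Smooth muscle markers overlapped, at 2960 to 4004 FPKM and 3582 to 4522 FPKM.

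**Figure D3:**
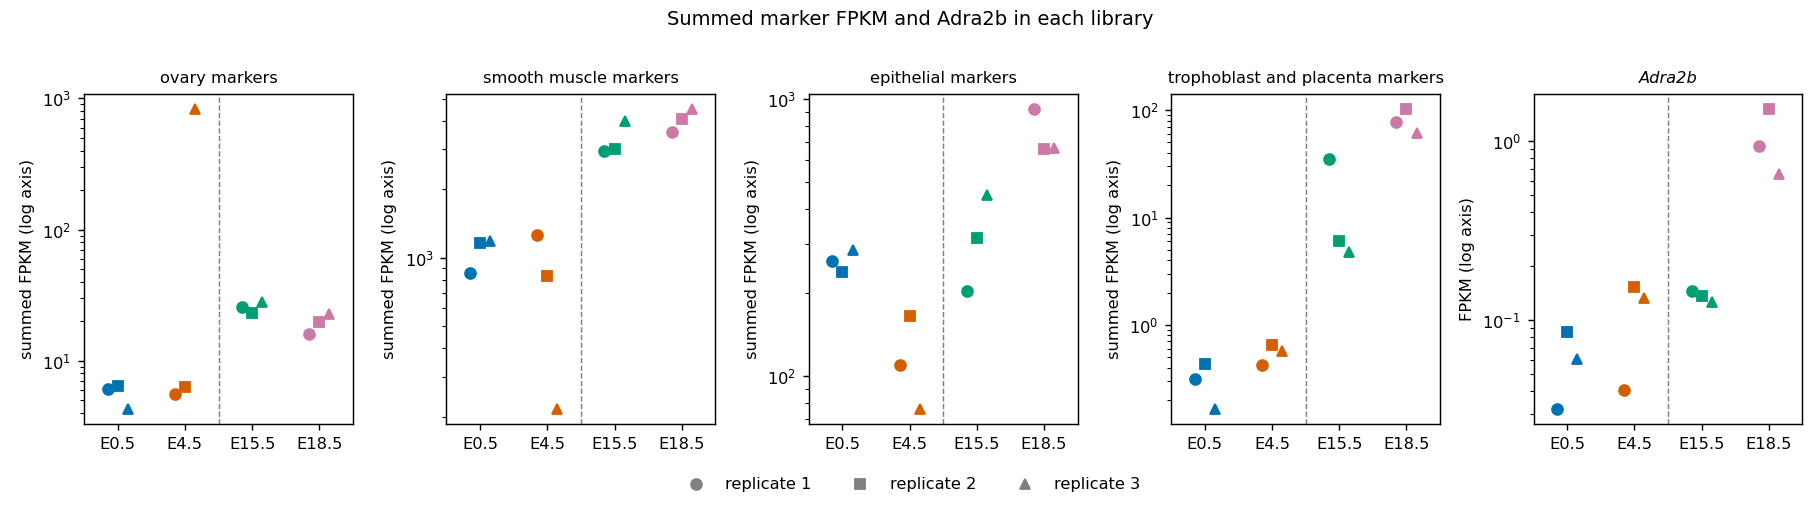
Summed FPKM of the ovary, smooth muscle, epithelial and trophoblast and placenta marker lists and, in the right panel, FPKM of Adra2b in each library by day (log axes; symbols give the replicate number, the dashed line separates the tables). E4.5 replicate 3 stands at 836 FPKM of ovary markers, and at E18.5 epithelial markers, trophoblast and placenta markers and Adra2b all lie above their E15.5 libraries.

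Around implantation Adra2b was low, with 0.0317, 0.0852 and 0.0608 FPKM at E0.5 against 0.0407, 0.152 and 0.132 FPKM at E4.5, from 11 to 50 counts. The groups overlapped and the mean was below the filter. Fitted without a filter, the log2 fold change (edgeR) was -0.80 with a standard error of 0.79 (adjusted p = 0.635).

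Adra2a (chr19:54044151-54048982, plus strand), the alpha2 subtype best known for presynaptic inhibition of noradrenaline release, was not called at either stage. It had 1.66, 1.72 and 2.88 FPKM at E0.5 against 2.27, 1.70 and 0.957 FPKM at E4.5. The groups overlapped, with a log2 fold change of 0.34 (95% interval -0.62 to 1.29, adjusted p = 0.706 in edgeR). It had 0.404, 0.457 and 0.735 FPKM at E15.5 against 0.490, 0.611 and 0.472 FPKM at E18.5, and its log2 fold change was 0.01 (95% interval -0.68 to 0.70, adjusted p = 0.992 in limma), a value that turned negative with a pseudocount of 1, with 75th percentile scaling and without E15.5 replicate 1 (-0.13).

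Adra2c (chr5:35278319-35281763, plus strand), the remaining alpha2 subtype, was uneven between mice. It had 107, 8 and 64 counts at E0.5 and 0, 0 and 172 counts at E4.5 (0.361, 0.0295 and 0.213 FPKM, and 0, 0 and 0.614 FPKM). The highest library of all was E4.5 replicate 3, the one with the ovary markers, and the fitted log2 fold change (edgeR) was 0.04 with a standard error of 1.95 (adjusted p = 0.995). Without that library both remaining E4.5 libraries were at 0, the E0.5 level of Adra2c was at least 19.3-fold higher against a floor of 3 counts per library (at least 11.8-fold without E0.5 replicate 1 as well), and it was called (edgeR adjusted p = 0.0622), where 14.1% of all rows were called and 6.08% passed the adjusted p in that fit. The number of receptors called thus stayed at 1 without E4.5 replicate 3, but it was Adra2c and not Adra1d. Fat markers summed to 253, 88.4 and 87.6 FPKM in the E0.5 replicates and 27.7, 10.5 and 113 FPKM in the E4.5 replicates, and their part in the values of Adra2c was not tested. In the labor table Adra2c was at most 0.0909 FPKM and was listed at 0 in 3 of 6 libraries.

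Within each library, Adra2b made up 1.54%, 4.65% and 1.93% of the summed alpha2 FPKM at E0.5 and 1.76%, 8.22% and 7.77% at E4.5. At E15.5 it made up 26.5%, 19.9% and 14.6%, and at E18.5 65.0%, 71.3% and 57.5%. The E18.5 shares were all above the E15.5 shares. The row of Adra2a holds 2 Ensembl transcripts in the implantation table and 1 in the labor table, so these shares are set side by side within a table only.

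**Figure D4:**
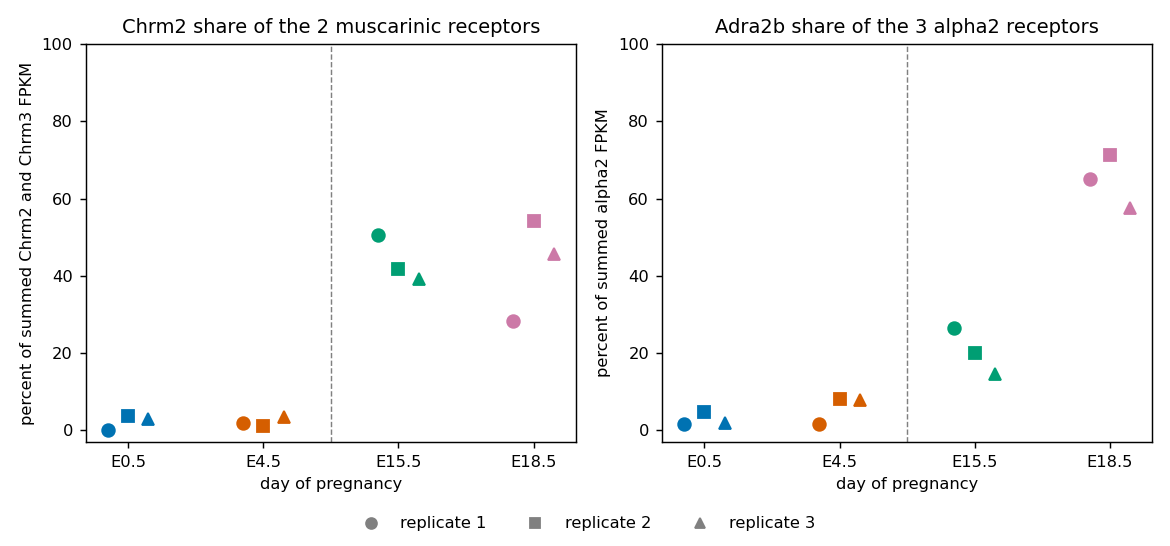
Share (percent, y axis) of Chrm2 in the summed FPKM of Chrm2 and Chrm3 on the left and of Adra2b in the summed FPKM of the 3 alpha2 receptors on the right, for each library by day; symbols give the replicate number and the dashed line separates the tables. The Chrm2 share is at most 3.70% in the implantation libraries and 28.2% to 54.2% in the labor libraries, and the Adra2b share at E18.5 lies above that of all E15.5 libraries.

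Adrb1 (chr19:56722199-56733113, plus strand), the beta1 receptor and the main beta subtype of the heart, had 0.722, 0.440 and 0.414 FPKM at E0.5 against 0.330, 0.402 and 0.307 FPKM at E4.5. All E0.5 libraries were above all E4.5 libraries, by a small margin, where 25.2% of all tested rows had groups that did not overlap (12.8% higher and 12.5% lower at E0.5). The log2 fold change was 0.61 (standard error 0.36, 95% interval -0.24 to 1.46, adjusted p = 0.420 in edgeR), so the difference did not pass the test. E0.5 replicate 1 had the highest Adrb1 value and the highest sum of fat markers, whereas E4.5 replicate 3 had the lowest Adrb1 value and the next highest sum of fat markers. The part of fat in these values was not tested. In late pregnancy the order was the opposite, with 0.108, 0.204 and 0.0844 FPKM at E15.5 against 0.0704, 0.0134 and 0.0629 FPKM at E18.5. The groups did not overlap, as in 19.9% of all tested rows (10.9% higher and 8.96% lower at E18.5), but Adrb1 was below the filter, and without a filter its log2 fold change (limma) was -0.63 with a standard error of 0.29 (adjusted p = 0.501).

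Of the muscarinic receptors, Chrm3 was lower at E18.5 by less than the study's minimum fold. Chrm3 (chr13:9875486-10360844, minus strand), the M3 receptor that drives cholinergic contraction of smooth muscle, had 0.439, 0.447 and 0.409 FPKM at E15.5 against 0.233, 0.230 and 0.264 FPKM at E18.5. The replicates of each day lay close together and the days did not overlap. The means were 0.432 ± 0.0197 FPKM and 0.242 ± 0.0188 FPKM (SD, n = 3 each), a ratio of 1.78, and the log2 fold change (limma) was -0.64 with a standard error of 0.26 (adjusted p = 0.395). Without E15.5 replicate 1 it was -0.63 (limma adjusted p = 0.526). Its unadjusted p was under 0.05 in 0 of the 6 fits that left out 1 library, and also not without a filter or with a replicate block. The sums of the endothelial, pericyte, ovary, epithelial, trophoblast and placenta, and nerve markers given beside Adra2b separated the same days, and their part in the Chrm3 values was not tested. With 3 mice a group, an exact two-sided permutation test for 1 receptor cannot go below p = 0.1, which Chrm3 and each of the other receptors without overlap reached.

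At the implantation stage Chrm3 had 0.457, 0.640 and 0.840 FPKM at E0.5 against 0.798, 1.46 and 0.434 FPKM at E4.5. The groups overlapped. E4.5 replicate 3, the library with few smooth muscle transcripts, was the lowest of all 6. E4.5 replicate 2, with the next lowest smooth muscle sum (833 FPKM), was the highest. The part of smooth muscle in these values was not tested. The log2 fold change (edgeR) was -0.47 with a standard error of 0.47 (adjusted p = 0.654), and -0.81 (edgeR adjusted p = 0.258) without E4.5 replicate 3.

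Chrm2 (chr6:36388084-36528414, plus strand), the M2 receptor, was barely detected around implantation. It had 0, 12 and 14 counts at E0.5 and 8, 10 and 9 counts at E4.5, at most 0.0248 FPKM, and was not tested there. In late pregnancy it had 0.450, 0.319 and 0.263 FPKM at E15.5 against 0.0916, 0.271 and 0.221 FPKM at E18.5. The groups overlapped, and the log2 fold change was -0.62 (95% interval -1.51 to 0.26, adjusted p = 0.545 in limma), and -0.46 without E15.5 replicate 1. Within each library Chrm2 made up 0%, 3.70% and 2.87% of the summed Chrm2 and Chrm3 FPKM at E0.5 and 1.89%, 1.27% and 3.35% at E4.5. The shares were 50.6%, 41.7% and 39.2% at E15.5 and 28.2%, 54.2% and 45.6% at E18.5. Because a share is taken within a library it does not depend on library scaling, but the 2 assemblies hold their own sets of transcripts, although both Chrm2 and Chrm3 had the same Ensembl transcripts in the 2 tables.

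In all, 2 of the 9 receptors did not overlap between E0.5 and E4.5 (Adrb1 higher, Adra1d lower), and both were among the 7 tested, where 25.2% of all tested rows did not overlap. Between E18.5 and E15.5, 4 of 9 did not (Adra2b higher, Adra1a, Adrb1 and Chrm3 lower), but only Adra2b and Chrm3 were among the 5 tested, where 19.9% of all tested rows did not overlap. Whether the day changed a receptor differently at the 2 stages was tested in a limma fit of the 12 libraries. Of the 3 receptors with at least 0.1 FPKM in both tables, 0 passed the adjusted p and 0 had an unadjusted p under 0.05, where 2.64% of all paired rows passed. The differences were -0.67 for Adra1d, 0.35 for Adra2a and 0.32 for Chrm3. With a mean of at least 0.1 FPKM required in either table, a filter chosen after seeing the data, 1 receptor, Adra2b, passed, where 2.52% of all rows passed. Adra2b entered that fit only through the labor table, where it was high at E18.5, and had 11 to 50 counts per library in the implantation table, so no difference between the stages is read from it. Adrb1 entered only through the implantation table and differed by 1.09 (limma unadjusted p = 0.0367, adjusted p = 0.245), which is not read either. Of 26597 rows in that fit, 1914 with a positive and 2754 with a negative difference had an unadjusted p under 0.05.

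Around the receptors, the implantation table holds 61 further assembled rows that carry the name of 1 of 4 receptors but no Ensembl transcript, and the labor table holds none. Of these, 45 lie inside the Chrm3 row and have no strand, so reads of the receptor and of a transcript on the opposite strand cannot be told apart. Their summed counts of 567 to 2155 per library were larger in every library than the 223 to 750 counts of the Chrm3 row itself. Adra1a had 11 such rows, all inside it, Adra1b 2 and Adra1d 3. The receptor values above do not include them.

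The signaling genes downstream of the receptors were counted from lists, beside 6.37% of all tested rows called higher and 5.82% lower at E0.5 (median log2 fold change -0.01) and 3.11% higher and 2.93% lower at E18.5 (median 0.02). The endothelial, epithelial and nerve marker sums, Cyp21a1 and the called stroma genes, given beside Adra1d, moved between E0.5 and E4.5 as well, and their part in these differences was not tested. Of 20 Gq and calcium genes, 0 were called higher and 1 lower at E0.5, with a median log2 fold change of -0.29, and 1 higher and 0 lower at E18.5, with a median of 0.18. The lower gene was Gna14, a Gq family alpha subunit, with 1.60, 1.43 and 3.05 FPKM at E0.5 against 5.56, 3.56 and 8.40 FPKM at E4.5 (log2 fold change -1.51, adjusted p = 0.141 in edgeR). Without E4.5 replicate 3, 5 of the 20 were called lower, where 6.31% of all rows were. The gene higher at E18.5 was Rgs4, which shortens Gq and Gi signals, with 4.36, 2.60 and 2.69 FPKM at E15.5 against 8.15, 6.71 and 5.73 FPKM at E18.5 (log2 fold change 1.09, adjusted p = 0.167 in limma). It was 0.91 and not called with a pseudocount of 1 FPKM, and 0.97 to 0.99 and not called without E15.5 replicate 2, E15.5 replicate 3 or E18.5 replicate 1.

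Of the Gs and cAMP genes, 1 of 21 was called lower at E0.5 and 0 of 22 were called at E18.5. It was Adcy3, an adenylyl cyclase, with 1.19, 1.16 and 0.952 FPKM at E0.5 against 2.76, 2.74 and 4.67 FPKM at E4.5 (log2 fold change -1.60, standard error 0.25, adjusted p = 0.0444 in edgeR). Its adjusted p passed in 1 of the 6 fits that left out 1 library (0.0101 to 0.193 in edgeR), the one without E4.5 replicate 3, and was 0.148 with a replicate block. With that block, and without E0.5 replicate 2, 0 of all 59732 tested rows passed. The medians were -0.17 and 0.22. Of the Gi genes, 3 of 7 were called lower at E0.5, with a median of -0.92, and 0 of 5 at E18.5, with a median of 0.07. Gnai1, a Gi alpha subunit, had 3.80, 3.95 and 3.35 FPKM at E0.5 against 15.7, 16.8 and 7.24 FPKM at E4.5 (log2 fold change -1.84, adjusted p = 0.0630 in edgeR). Its adjusted p was 0.00145 without E4.5 replicate 3 and 0.144 to 0.222 in the other fits that left out 1 library (edgeR). The other 2, named after their values were seen, were Gnaz, at 0.189 to 0.467 FPKM and 0.946 to 1.64 FPKM, and Kcnj3, a potassium channel subunit opened by Gi signals, whose difference rests on 1.84 FPKM in E4.5 replicate 3. Without that library 2 of the 7 Gi genes and 2 of the 21 Gs and cAMP genes were called lower, again beside 6.31% of all rows. The median of the Gi genes was then -0.22 and that of the Gs and cAMP genes -0.10, beside 0.05 over all rows. Of 7 genes of receptor desensitization, the kinases and arrestins that switch receptors off, 0 were called at either stage, with medians of -0.07 and 0.03.

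**Figure D5:**
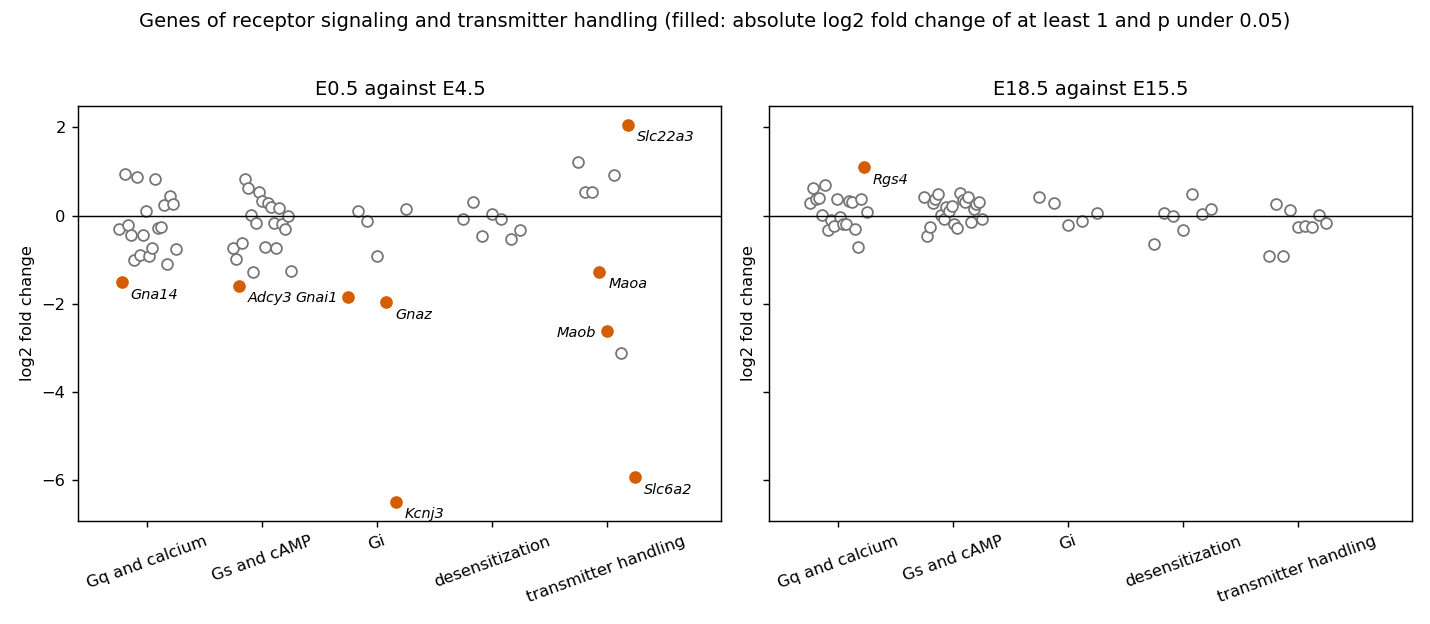
Log2 fold change (y axis) of each tested gene of 5 lists (x axis), E0.5 against E4.5 on the left and E18.5 against E15.5 on the right; filled points with names were called by the study's criterion. Transmitter handling holds 4 called genes at the implantation stage and none at the labor stage.

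Genes that make, take up or break down the transmitters differed in both directions at the implantation stage, with 1 of 9 tested genes called higher at E0.5 and 3 lower, and a median of 0.53. Slc6a2, the noradrenaline transporter of sympathetic nerves, had 0.381, 0.0277 and 0.0339 FPKM at E0.5 against 12.5, 13.0 and 1.33 FPKM at E4.5. All E0.5 libraries were below all E4.5 libraries, with a log2 fold change (edgeR) of -5.94 with a standard error of 1.43 (adjusted p = 0.108). Maob, a monoamine oxidase, had 0.841, 0.780 and 0.847 FPKM at E0.5 against 3.49, 6.37 and 5.64 FPKM at E4.5 (log2 fold change -2.62, adjusted p = 0.0173 in edgeR). Maoa, the other monoamine oxidase, differed by -1.27 on the log2 scale (edgeR adjusted p = 0.0531). Of the 6 fits that left out 1 library, the adjusted p passed in 1 for Slc6a2 (0.0227 to 0.287 in edgeR) and in 1 for Maoa (0.0238 to 0.224 in edgeR), both times the one without E4.5 replicate 3.

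Slc22a3, a low-affinity transporter that takes up catecholamines outside nerves, went the other way, with 4.77, 5.11 and 5.48 FPKM at E0.5 against 1.16, 1.12 and 1.43 FPKM at E4.5 (log2 fold change 2.06, standard error 0.19, adjusted p = 0.0136 in edgeR). When 1 library was left out, the adjusted p passed in 3 of 6 fits for Maob (0.00474 to 0.121 in edgeR) and in 2 of 6 for Slc22a3 (0.00263 to 0.106 in edgeR). Neither gene passed without E0.5 replicate 2 or with a replicate block, 2 fits in which 0 of all 59732 tested rows passed. The block gave 0.0898 for Maob and 0.0877 for Slc22a3 (adjusted p in edgeR), and both were still called by the study's criterion. At the labor stage 0 of 9 tested genes of this list were called, with a median of -0.24. Nerve markers summed to 0.740 to 1.26 FPKM at E0.5 against 1.79 to 15.4 FPKM at E4.5, highest in E4.5 replicate 3, with Uchl1 the largest share (12.05 FPKM in that library). That library had the lowest Slc6a2 value of the E4.5 group (1.33 FPKM). The part of nerve in these differences was not tested.

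The rows whose pattern over the 12 libraries was most like that of a receptor were sought for the 3 receptors with at least 0.1 FPKM in both tables, among 10871 other named rows, as the highest Pearson correlation of log2(FPKM + 0.1) after each table's mean had been subtracted. These values are a description, the 3 highest of many, and the libraries share their 4 groups and 2 tables. For Chrm3 they were Fmo2 (r = 0.94), Adamdec1 (r = 0.93) and Arl4d (r = 0.92). For Adra2a they were Slc35c1 (r = 0.97), Lap3 (r = 0.89) and Galnt3 (r = 0.88), and for Adra1d they were Gm37666 (r = 0.94), Fbn2 (r = 0.86) and Fv1 (r = 0.83).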

How the data were processed

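RNA of 12 mouse uteri was sequenced in 4 groups of 3. The labels describe a poly(A) selection and the study's methods a ribosomal RNA depletion, and the submitters' processing notes name Bowtie 0.12.2, HISAT2 2.0, StringTie 1.3.0, mm8 and mm10. The study's methods name Cutadapt, Tophat2, StringTie and Ballgown. The authors deposited FPKM for both stages, and the counts of the implantation stage were deposited by the authors as whole numbers, with a placeholder for 0 in FPKM that was set to 0. How reads were assigned to genes is not given in the sources used here. Loci that lack a gene name took 1.02% to 1.86% of the counts of a library and were kept, since they have an identifier and a position. No value column was left unused, and other receptors of these families and 1 gene of the transmitter list are not reported here.

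In R 4.3.3, edgeR 4.0.16 (quasi-likelihood F-test, TMM) was run on the implantation counts and limma 3.58.1, with trend, on the labor values as log2(FPKM + 0.1). A row was tested if it averaged 0.1 FPKM or more, which left 59732 and 30928 rows. DESeq2 1.42.0 was an alternative, beside other filters, pseudocounts of 1 and 0.01, 75th percentile scaling, limma without trend, the replicate number as a block and leaving out each library. The difference between stages used limma over 22056 of 33525 pairs of rows that share transcripts. All receptors are named, and of each list at most the 4 largest changes among called genes with at least 1 FPKM. Fshr, Gnaz, Kcnj3 and, at the labor stage, Gap43, Tubb3, Prph, Stmn2, Prl3b1, Prl3d1, Cyp11a1, Star and Inha fall outside this rule and were named after their values were seen. The receptors and lists were chosen with earlier results of these data known. P-values measure the spread between the 3 mice of a group. Scripts used Python 3.11.15, pandas 2.3.3, NumPy 2.4.6 and SciPy 1.17.1.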

Additional observations from a re-analysis of the deposited data

Results flagged for a closer look

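An assembled row named Adra1d without an Ensembl transcript was not used in the comparisons. It lies on the minus strand of chr2:131544969-131545843, has 875 bases and ends 6 bases from the Adra1d row, and it held counts in every implantation library, at least 60 at E0.5 and at least 87 at E4.5. The mean level was 1.45 ± 0.546 FPKM in the E0.5 mice and 2.11 ± 1.01 FPKM in the E4.5 mice (SD, n = 3 each). The labor table has no row of this kind.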

How the results depend on the processing

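The number of receptors past the adjusted p was 0 at each stage under every alternative run, but several of these fits could hardly show a pass. At the implantation stage 0 of all rows passed with a replicate block and without E0.5 replicate 2. Without E0.5 replicate 1 or 3, 21 or 33 rows passed higher and 2 or 3 lower. For the labor stage 0 rows passed without E18.5 replicate 1, and no fit had more than 19 rows higher and 12 lower. At the implantation stage the 1 call, Adra1d, fell to 0 with limma on log2(FPKM + 0.1), with a minimum of 1 FPKM, which it did not reach, and with a replicate block, and lay between 0 and 1 when 1 library was left out. The replicate numbers did not pair the mice (correlations of same-number deviations from -0.134 to 0.0543), and the block gave Adra1d -0.93 (edgeR p = 0.0888) and left all other receptor calls as they were. At the labor stage the 1 call, Adra2b, fell to 0 with a pseudocount of 1, which gave it 0.82, and with a minimum of 1 FPKM, which it did not reach. The 0 receptors that differed between stages became 1 with the filter on either table, through which Adra2b enters by its labor values alone.

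Log2 fold changes that changed sign when 1 library was left out ranged at the implantation stage from -0.29 to 0.32 for Adra1a, -0.68 to 8.84 for Adra2c and -0.81 to 0.0365 for Chrm3. The 8.84 came from the fit with 0 counts in both E4.5 libraries, so its size is not read beyond the bounds given above. At the labor stage they ranged from -0.43 to 0.20 for Adra1d and -0.13 to 0.23 for Adra2a, which was also -0.002 with a pseudocount of 1 and -0.0415 with 75th percentile scaling. The difference between stages ranged from -0.0646 to 0.71 for Chrm3. The ovary markers Lhcgr (-10.03 to 0.41) and Star (-5.25 to 0.36) were positive without E4.5 replicate 3. The causes were not tested. Chrm2 and Adra2b at the implantation stage rest on at most 50 counts per library.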
